A study of Mus musculus with 8 samples.

Results

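The 32 genes described here are the standard transcript markers of dividing cells, taken as a fixed set by gene symbol: 2 cyclins of the G1 phase, 10 genes of DNA replication and 20 genes of the G2 phase and mitosis. Their signals were read from the deposited log2 array table, from probe sets annotated with exactly 1 gene symbol. A gene with several such probe sets is given by its brightest one, judged by the mean of all 8 arrays. A probe set was found for 31 of the 32, since Ccnb1 had none with a single symbol. Of these, 30 had a mean above the median of all probe sets (5.18 on the log2 scale) and were tested, among 13112 genes tested of 22180 measured. Bub1 lay below that level and is given by its values alone.

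The groups were Atgl KO/cTg mice and wt/cTg mice, and the material was isolated club cells, which line the small airways of the lung and secrete protective proteins. Atgl is the older name of Pnpla2, the lipase that begins the breakdown of stored triglycerides, and the Atgl KO/cTg animals lacked it. Both genotypes carried cTg, which the labels do not expand; in work on Atgl knockout mice the name stands for an Atgl transgene in heart muscle. There were 4 arrays per genotype. The Atgl KO/cTg arrays held pools of 4 mice each, 16 mice in all, aged 38 to 46 weeks, and the wt/cTg arrays held pools of 3 or 4 mice, 14 in all, aged 41 to 48 weeks. A replicate is therefore a pool, and its number follows the order of the samples. The mouse numbers in the titles fall into 4 runs of neighbouring numbers, 3 of which hold pools of both genotypes, while wt/cTg replicate 3 is alone in its run. The labels do not say whether a run was a batch. No treatment was given, and all mice ate standard chow.

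Cells that leave rest first raise D-type and E-type cyclins, which activate kinases that release E2F transcription factors. E2F then switches on the genes of DNA replication, such as the Mcm helicase, the Pcna clamp and the enzymes that make deoxynucleotides. Later, in G2, complexes that bind CCAAT boxes and the cell cycle homology region switch on the genes of chromosome condensation, the spindle and chromosome segregation. Club cells of the undisturbed adult airway divide rarely and act as a reserve that renews the bronchiolar lining after injury.

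None of the 30 tested genes passed the threshold between genotypes in limma (a linear model with a variance shared across genes, Benjamini-Hochberg adjusted p under 0.05 over all genes tested). The smallest limma adjusted p was 0.524, for Cdk1, and the highest was 0.999. Over all genes 0.0991% were called by this rule, 13 of 13112. At an unadjusted p under 0.05 there was 1 of the 30, Cdk1, where 7.95% of all genes tested met that rule. The 2 genotypes did not overlap for 1 of the 30, Pcna, where 4.35% of all genes tested had groups that did not overlap. As shares of the 30, both counts lie below those seen over all genes.

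The intervals give, for each gene on its own and at 95%, the size of difference in pool signal that its values leave possible. They were not corrected for the number of genes. A difference is the mean log2 signal of the Atgl KO/cTg pools minus that of the wt/cTg pools. All 30 intervals of 95% lay between -1 and 1, and 25 lay between -0.5 and 0.5. Over all 13112 genes tested, 12881 and 10208 did. The median distance from a difference to its interval bound was 0.31 for these genes and 0.26 for all genes tested. Among the 30 the lowest bound was -0.62, for Aurkb, and the highest was 0.90, for Cdk1. Of the 30 differences 16 were above 0 and 14 below, with a median of 0.0065, where the median over all genes tested was -0.0073. The median size of a difference, without its sign, was 0.091 for these genes and 0.095 for all genes tested.

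**Figure D1:**
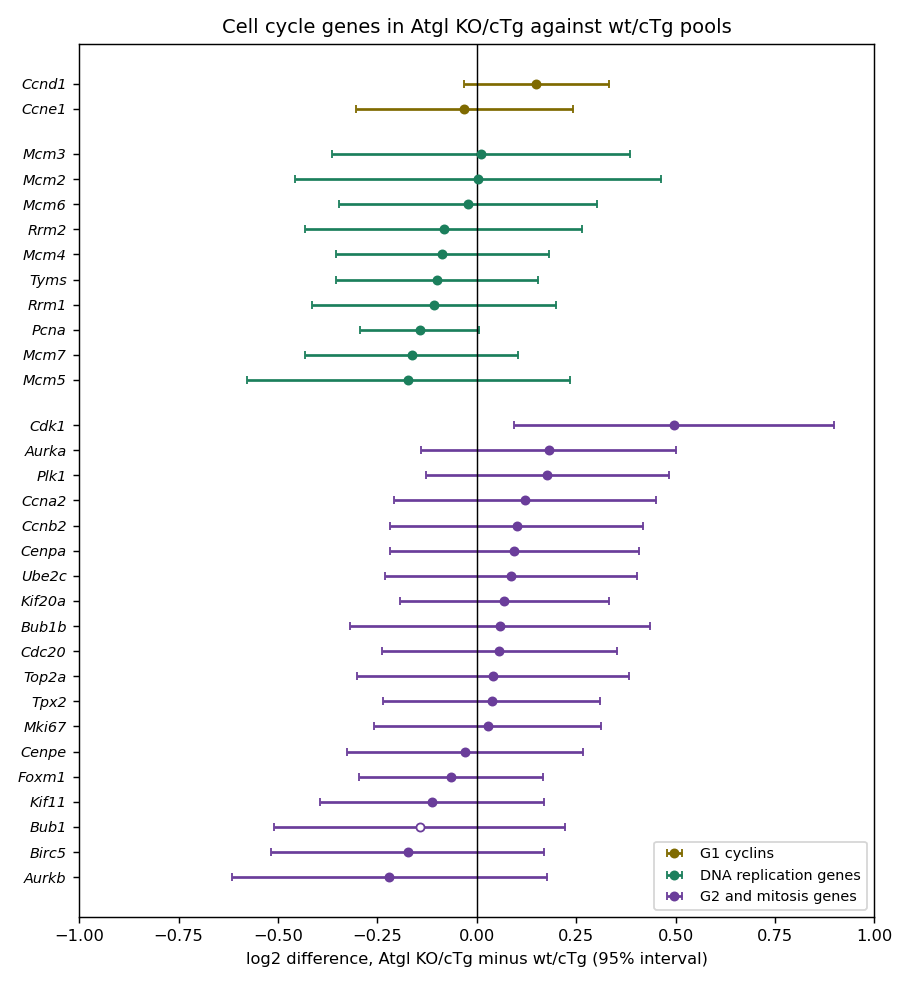
Difference of each of the 31 measured genes (points, log2 signal in Atgl KO/cTg minus wt/cTg) with its 95% interval from limma (bars), by role from top to bottom. The open point is Bub1, below the level filter. Of the intervals drawn, that of Cdk1 lies wholly above 0, from 0.09 to 0.90.

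Some facts of the whole series bear on these values. Array medians ran from 5.12 to 5.24 and correlations between arrays from 0.965 to 0.985. Pnpla2 read 6.99, 7.16, 7.09 and 6.70 in the Atgl KO/cTg pools, against 8.70, 8.63, 8.62 and 8.86 in the wt/cTg pools, so the groups did not overlap and followed the labels. Where its probes lie relative to the deletion was not known here. Scgb1a1, the club cell secretoglobin, averaged 12.92 in Atgl KO/cTg, against 12.99 in wt/cTg, close to the highest value of any array (13.4 to 13.5). Transcripts used as markers of other lung cells gave signal too, and which cells carried them was not tested. The marker lists were chosen with earlier results of these data known. All 9 alveolar type 2 markers had differences below 0, beside 52.2% of all genes tested, and 4 of them passed the threshold, beside 0.0991%. Their summed log2 signals were 92.9 to 96.0 in Atgl KO/cTg, against 96.9 to 100.9 in wt/cTg. The lowest single value among them was 8.23. Whether cells of other types carried part of the cell cycle signal was not tested. In a pool of cells a smaller number of dividing cells and less RNA in each cannot be told apart.

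Promoters of both classes are shown for the motifs of the background given above. Whether these motifs bear on how the genes varied from pool to pool was not tested. RefSeq promoter windows, 250 bases before to 50 after the start on GRCm38.p6, were given for 25 of the 32 genes. Each sequence below is the stretch of 200 bases that ends at the base before the start, written 5′ to 3′ on the strand of the gene. Capitals mark every match on either strand. The CCAAT box reads ATTGG on the other strand. The cell cycle homology region was searched as TTTGAA, which reads TTCAAA on the other strand, and as the palindrome TTTAAA. E2F sites were searched as TTTCCCGC or TTTCGCGC or TTTGCCGC or TTTGGCGC.
Cdk1, chr10:69352913-69353112, minus strand: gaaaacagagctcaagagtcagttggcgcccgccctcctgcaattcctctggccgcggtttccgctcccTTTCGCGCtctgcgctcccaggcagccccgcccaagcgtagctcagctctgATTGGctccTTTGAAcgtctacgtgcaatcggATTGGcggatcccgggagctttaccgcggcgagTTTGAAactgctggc
Top2a, chr11:99024190-99024389, minus strand: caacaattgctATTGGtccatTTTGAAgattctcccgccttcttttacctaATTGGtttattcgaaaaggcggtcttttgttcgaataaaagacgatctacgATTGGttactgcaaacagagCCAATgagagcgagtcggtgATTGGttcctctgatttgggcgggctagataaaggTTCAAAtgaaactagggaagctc
Ccnb2, chr9:70421555-70421754, minus strand: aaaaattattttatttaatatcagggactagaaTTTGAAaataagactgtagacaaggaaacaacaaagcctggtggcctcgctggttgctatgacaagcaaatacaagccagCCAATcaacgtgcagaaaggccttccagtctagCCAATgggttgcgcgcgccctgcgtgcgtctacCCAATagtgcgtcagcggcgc
Mcm6, chr1:128359706-128359905, minus strand: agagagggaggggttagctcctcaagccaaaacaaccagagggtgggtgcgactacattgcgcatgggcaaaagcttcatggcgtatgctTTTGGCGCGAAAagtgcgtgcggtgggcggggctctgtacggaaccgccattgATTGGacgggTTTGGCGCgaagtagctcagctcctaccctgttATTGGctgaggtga
Mcm2, chr6:88898781-88898980, minus strand: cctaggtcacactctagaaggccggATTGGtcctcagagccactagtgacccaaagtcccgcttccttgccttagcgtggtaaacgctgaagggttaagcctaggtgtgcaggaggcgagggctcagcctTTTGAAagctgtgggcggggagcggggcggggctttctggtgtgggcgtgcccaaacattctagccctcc
Pcna, chr2:132253181-132253380, minus strand: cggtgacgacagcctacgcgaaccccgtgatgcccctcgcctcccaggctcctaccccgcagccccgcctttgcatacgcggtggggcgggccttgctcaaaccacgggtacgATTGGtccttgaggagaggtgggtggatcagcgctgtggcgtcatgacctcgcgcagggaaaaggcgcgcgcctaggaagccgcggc

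In the Cdk1 promoter a TTTGAA began 15 bases before the start (position -15) and another at -71, with CCAAT matches at -48, -80 and, upstream of the printed stretch, -208 and an E2F match at -131. Top2a, the topoisomerase that untangles chromosomes before they separate, had TTTGAA matches at -23 and -179 and 5 CCAAT matches within the printed stretch. The Ccnb2 promoter held 3 CCAAT matches, at -21, -54 and -87, with a TTTGAA at -167 and another that begins 4 bases after the start, outside the printed stretch. In contrast, Mcm6 held 3 E2F matches, at -47, -106 and -110, of which the last 2 overlap, and no match to the homology region. Mcm2 held a TTTGAA at -70, and neither Mcm2 nor Pcna held a match to the 4 E2F octamers in this window.

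Over the mitosis genes with a window, 14 of 15 held CCAAT, and over the replication genes 8 of 9 did. Of all 27025 genes with a window 41.1% held it, a gene being counted where any of its windows did. TTTGAA was found in 11 of 15 mitosis genes and 1 of 9 replication genes, against 20.2% of all genes with a window. With TTTAAA also counted these became 14 of 15 and 3 of 9, against 30.6%. The E2F octamers showed the opposite order, in 1 of 15 mitosis genes and 4 of 9 replication genes, against 2.6% of all genes with a window. In the further lists of each class, CCAAT was found in 26 of 39 other mitosis genes and 15 of 27 other replication genes. There TTTGAA was found in 26 of 39 and 4 of 27, and with TTTAAA also counted in 27 of 39 and 6 of 27. The E2F octamers were found in 5 of 39 and 13 of 27. Mcm7 had 2 windows and was counted where either held the motif. A match is a string of letters and does not show that a factor binds there.

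The G1 cyclins carry the mitogen signal into the cycle. Ccnd1, cyclin D1, the partner of Cdk4 and Cdk6 (probe set 17498502), read 9.71, 9.73, 9.51 and 9.72 in the Atgl KO/cTg pools, against 9.64, 9.40, 9.60 and 9.43 in the wt/cTg pools. In Atgl KO/cTg 3 pools lay above every wt/cTg pool, and replicate 3 lay among the wt/cTg values. The difference was 0.15 (SE 0.08, limma adjusted p = 0.699). Ccne1, cyclin E1, the partner of Cdk2 at the entry to S phase (probe set 17489886), read 5.85, 6.11, 5.76 and 5.90 in Atgl KO/cTg and 5.91, 6.04, 6.08 and 5.70 in wt/cTg. Its groups overlapped over nearly their whole range, with a difference of -0.03 (95% interval -0.30 to 0.24).

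Of the 10 replication genes 2 had differences above 0 and 8 below, and none passed the threshold. The median difference was -0.093 and the range was -0.17 (Mcm5) to 0.01 (Mcm3), beside a median of -0.0073 over all genes tested. When each array was centred on its own median, all 10 lay below 0, and the median was -0.12. With the runs of mouse numbers as a block, where wt/cTg replicate 3 adds nothing to the difference, all 10 also lay below 0, and the median was -0.13. Without wt/cTg replicate 1 the median was 0.014, with 6 of 10 above 0, and without wt/cTg replicate 4 it was -0.18, with all 10 below 0. The sign of this median thus turned when 1 wt/cTg pool, of 3 mice, was left out.

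Pcna, the sliding clamp that holds DNA polymerase on its template (probe set 17391971), had log2 signals of 10.29, 10.11, 10.24 and 10.30 in the Atgl KO/cTg pools, against 10.45, 10.32, 10.43 and 10.30 in the wt/cTg pools. Every Atgl KO/cTg pool lay below every wt/cTg pool, although replicate 4 of each genotype rounded to the same value. The means were 10.23 ± 0.08 (SD) in the Atgl KO/cTg pools, against 10.38 ± 0.08 (SD) in the wt/cTg pools, n = 4 each, a difference of -0.14 (95% interval -0.29 to 0.01). The exact two-sided permutation p was 0.0286, the smallest that 4 against 4 arrays can give, and the limma adjusted p was 0.643. The Atgl KO/cTg level was 0.906 of the wt/cTg level.

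The 6 Mcm genes encode the ring that unwinds DNA at the fork. Mcm2 (probe set 17468798) read 6.41, 6.73, 6.56 and 6.73 in Atgl KO/cTg, against 7.29, 6.61, 6.36 and 6.16 in wt/cTg. The wt/cTg pools held both the highest and the lowest value, and the Atgl KO/cTg pools lay between them. The means were equal to 2 decimals, 6.61 ± 0.16 (SD) in the Atgl KO/cTg pools, against 6.61 ± 0.49 (SD) in the wt/cTg pools, n = 4 each.

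Mcm5 (probe set 17502583) read 6.22, 6.29, 5.99 and 6.35 in Atgl KO/cTg and 6.96, 6.37, 6.19 and 6.02 in wt/cTg. Its wt/cTg replicate 1 stood well above the other 7 arrays, which overlapped. The difference was -0.17 (SE 0.18, limma adjusted p = 0.860), and without that pool it was 0.018. Mcm7 (probe set 17454226) read 6.32, 6.22, 6.13 and 6.44 in Atgl KO/cTg, against 6.69, 6.45, 6.31 and 6.31 in wt/cTg. Its lowest values were in Atgl KO/cTg replicates 2 and 3, and the groups overlapped, with a difference of -0.16 (SE 0.12, limma adjusted p = 0.789). Mcm3, Mcm4 and Mcm6 had differences of 0.01, -0.09 and -0.02, each with wt/cTg replicate 1 as the highest of the 8 arrays.

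The remaining replication genes supply deoxynucleotides. Rrm2, the regulated small subunit of ribonucleotide reductase (probe set 17547690), read 7.63, 7.80, 7.36 and 7.80 in Atgl KO/cTg, against 8.06, 7.50, 7.94 and 7.42 in wt/cTg. Here wt/cTg replicates 1 and 3 were the highest arrays and the groups overlapped, with a difference of -0.08 (SE 0.16). A further probe set of Rrm2 (17274540) gave 0.075, the opposite sign. Rrm1, the large subunit, and Tyms, thymidylate synthase, differed by -0.11 (95% interval -0.42 to 0.20) and -0.10 (95% interval -0.35 to 0.15).

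Of the 18 tested genes of G2 and mitosis 13 had differences above 0 and 5 below, and none passed the threshold. Their median difference was 0.058, and the range was -0.22 (Aurkb) to 0.50 (Cdk1). Without wt/cTg replicate 4 the median was -0.031, with 5 of 18 above 0, and with arrays weighted by their fit it was -0.0069. Without wt/cTg replicate 1 it was 0.12. As with replication, leaving out 1 wt/cTg pool of 3 mice turned the sign of the median.

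Cdk1, the kinase whose activation starts mitosis (probe set 17241692), had log2 signals of 6.87, 6.74, 6.46 and 6.82 in the Atgl KO/cTg pools, against 6.59, 5.80, 6.54 and 5.98 in the wt/cTg pools. In Atgl KO/cTg 3 pools lay above every wt/cTg pool, while replicate 3 lay below wt/cTg replicates 1 and 3. The wt/cTg values formed a higher and a lower pair. The means were 6.72 ± 0.18 (SD) in the Atgl KO/cTg pools, against 6.23 ± 0.40 (SD) in the wt/cTg pools, n = 4 each, a difference of 0.50 (SE 0.18, 95% interval 0.09 to 0.90) or a ratio of 1.41.

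For Cdk1 the unadjusted limma p was 0.0203, the limma adjusted p over all genes was 0.524 and the exact two-sided permutation p was 0.0857. Leaving out Atgl KO/cTg replicate 1 gave an unadjusted limma p of 0.0543, leaving out wt/cTg replicate 2 gave 0.0662, and leaving out wt/cTg replicate 4 gave 0.0578. Over 17 other settings, each array left out among them, the difference ranged from 0.35 to 0.62, and the smallest limma adjusted p in any of them was 0.403. Its partners showed smaller differences. Ccna2 (cyclin A2) differed by 0.12 (95% interval -0.21 to 0.45) and Ccnb2 (cyclin B2) by 0.10 (95% interval -0.22 to 0.42). Foxm1, a transcription factor that drives cyclin B and other G2 genes, differed by -0.06 (95% interval -0.30 to 0.17).

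Mki67, the gene of the Ki-67 antigen that coats mitotic chromosomes and is the usual stain for dividing cells (probe set 17497334), read 8.02, 7.90, 7.74 and 7.99 in Atgl KO/cTg, against 8.04, 7.91, 8.08 and 7.50 in wt/cTg. The lowest value was wt/cTg replicate 4, and the other 7 arrays were interleaved. The means were 7.91 ± 0.12 (SD) in the Atgl KO/cTg pools, against 7.88 ± 0.26 (SD) in the wt/cTg pools, n = 4 each, a difference of 0.03 (95% interval -0.26 to 0.31).

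Top2a (probe set 17268909) read 6.93, 7.17, 6.78 and 7.04 in Atgl KO/cTg, against 7.16, 7.07, 7.05 and 6.48 in wt/cTg. As for Mki67, wt/cTg replicate 4 lay below all other arrays, and the rest overlapped. The difference was 0.04 (SE 0.16), and it was -0.11 without wt/cTg replicate 4.

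**Figure D2:**
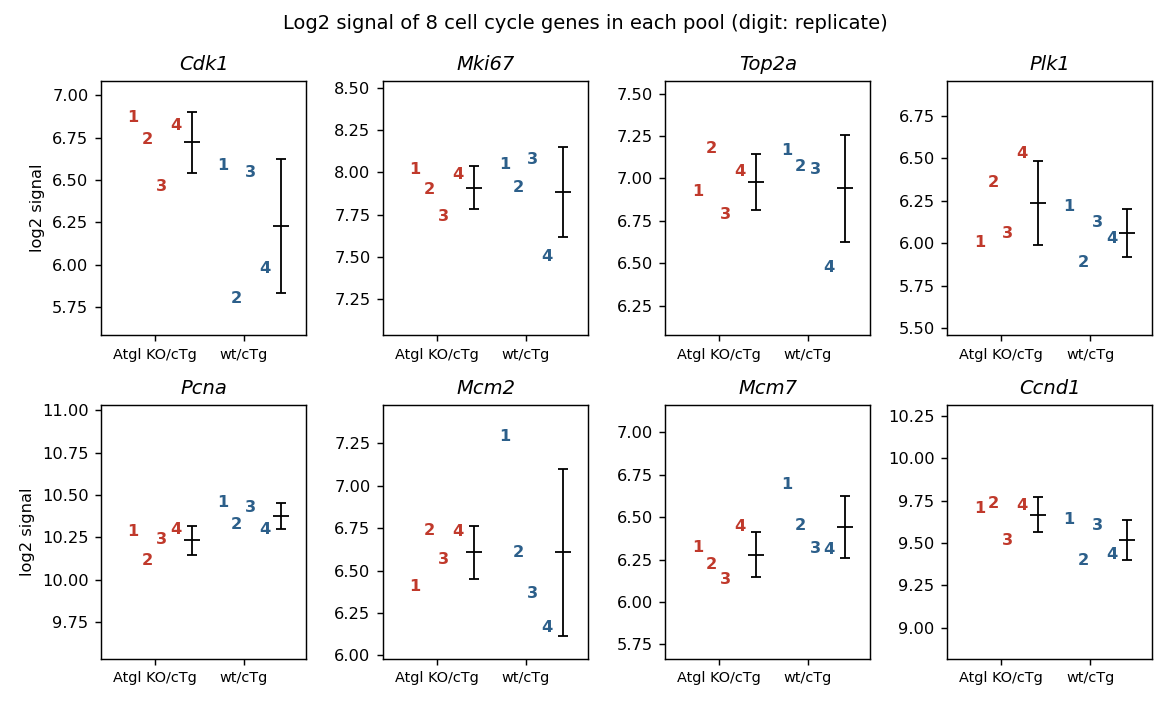
Log2 signal (y axis, with the same span in every panel) of 8 genes in each pool, with Atgl KO/cTg on the left and wt/cTg on the right. Digits are replicate numbers, and the bar beside each group is its mean ± SD (n = 4). The groups overlap in every panel except Pcna, and wt/cTg replicate 4 is the lowest array for Mki67 and Top2a.

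Among the mitotic kinases, Plk1, which acts at centrosomes and kinetochores (probe set 17482739), read 6.004, 6.36, 6.06 and 6.53 in Atgl KO/cTg, against 6.21, 5.88, 6.12 and 6.02 in wt/cTg. Its 2 highest arrays were Atgl KO/cTg replicates 4 and 2, and the other pools of both genotypes overlapped. The difference was 0.18 (SE 0.14, limma adjusted p = 0.798). Aurka, the kinase of spindle poles (probe set 17395016), read 6.18, 6.16, 5.91 and 6.10 in Atgl KO/cTg, against 6.31, 5.68, 5.89 and 5.74 in wt/cTg. All 4 Atgl KO/cTg pools lay above 3 of the wt/cTg pools and below wt/cTg replicate 1. The difference was 0.18 (SE 0.15, limma adjusted p = 0.803), and it was 0.32 without wt/cTg replicate 1.

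Aurkb and Birc5, both parts of the chromosomal passenger complex that corrects faulty attachments to the spindle, had differences of the other sign. Aurkb differed by -0.22 (95% interval -0.62 to 0.18) and Birc5 by -0.17 (95% interval -0.52 to 0.17). Tpx2, which activates Aurka on the spindle, differed by 0.04 (95% interval -0.24 to 0.31). Each of these intervals includes 0.

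Genes of the spindle checkpoint and its target gave small differences as well. Bub1b, a checkpoint protein that holds back anaphase, differed by 0.06 and Cdc20, the activator of the ubiquitin ligase it restrains, by 0.06. Ube2c, which hands ubiquitin to that ligase, differed by 0.09. Bub1, a checkpoint kinase (probe set 17391376), was below the level filter and read 4.76, 4.31, 4.15 and 4.32 in Atgl KO/cTg, against 4.75, 4.20, 4.41 and 4.76 in wt/cTg. Its groups overlapped fully, with a difference of -0.14 and an exact permutation p of 0.457.

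The motors and centromere proteins completed the set. Kif11, the motor that pushes spindle poles apart, differed by -0.11 (95% interval -0.39 to 0.17), and Kif20a, a motor of cytokinesis, by 0.07 (95% interval -0.19 to 0.33). Cenpa, the histone variant that marks centromeres, differed by 0.09 (95% interval -0.22 to 0.41). Cenpe, a kinetochore motor, differed by -0.03 (95% interval -0.33 to 0.27).

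The spread between pools was wider than the mean difference between genotypes. The mean signal of the replication genes spanned 0.16 over the Atgl KO/cTg pools and 0.62 over the wt/cTg pools, and its mean difference between genotypes was -0.087. That of the mitosis genes spanned 0.30 over the Atgl KO/cTg pools and 0.45 over the wt/cTg pools, with a mean difference of 0.052. For 9 of the 10 replication genes wt/cTg replicate 1 was the highest of the 8 arrays, as it was for 20.5% of all genes tested. For 8 of the 18 mitosis genes wt/cTg replicate 4 was the lowest array, as it was for 15.4% of all genes tested. Atgl KO/cTg replicate 2 was the highest array for 8 of the 18 mitosis genes, and for 22.9% of all genes.

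The mean deviation of the replication genes from their own 8-array means was -0.07, -0.01, -0.12 and 0.03 in the Atgl KO/cTg pools, against 0.40, 0.01, -0.02 and -0.22 in the wt/cTg pools. All Atgl KO/cTg pools lay between the extreme wt/cTg pools. For the mitosis genes it was -0.05, 0.16, -0.14 and 0.13 in Atgl KO/cTg, against 0.20, -0.08, 0.03 and -0.25 in wt/cTg. The mitosis genes thus had the same highest and lowest pool, with a narrower range in wt/cTg. Over all genes tested the mean deviation was 0.06 in wt/cTg replicate 1 and -0.02 in wt/cTg replicate 4.

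**Figure D3:**
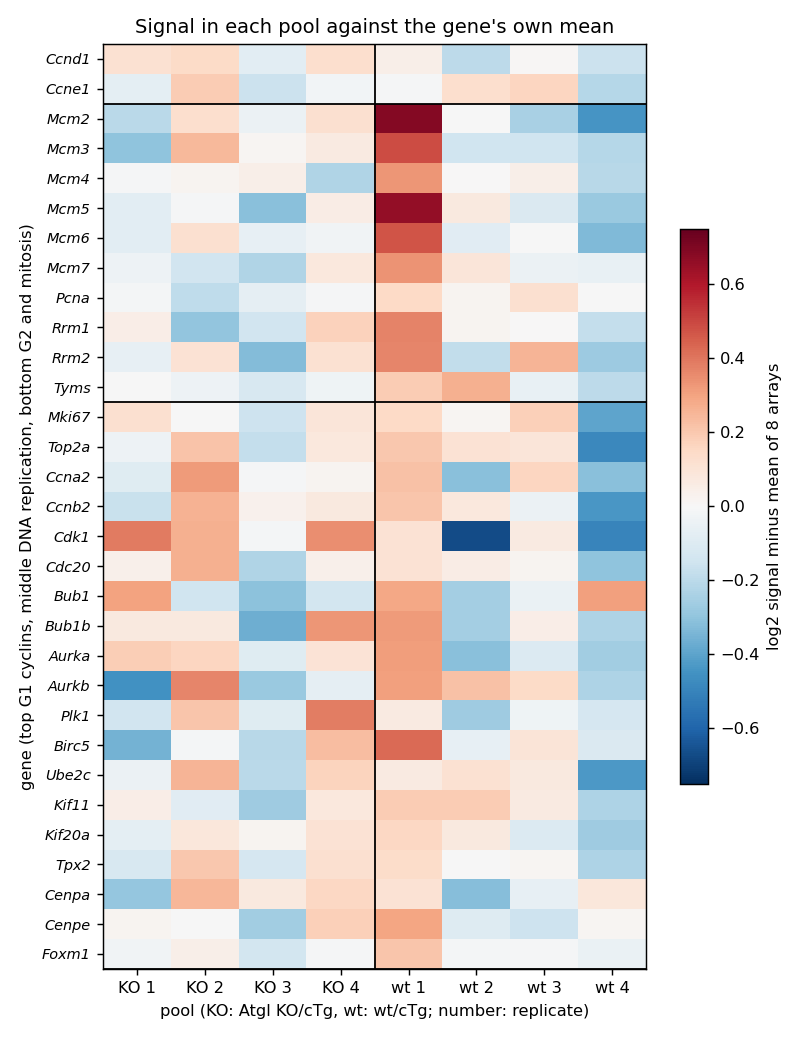
Log2 signal of each measured gene (rows) in each pool (columns, Atgl KO/cTg left of the line and wt/cTg right of it), as the deviation from the gene's own mean over 8 arrays (colour). The column of wt/cTg replicate 1 is above the mean for all 10 replication genes, and that of wt/cTg replicate 4 is the lowest for 8 of 18 tested mitosis genes.

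For 22 of the 30 tested genes the wt/cTg pools were the more spread. The SD was larger in wt/cTg than in Atgl KO/cTg for 9 of 10 replication genes, where the same held for 45.0% of all genes tested, and the median SD of the replication genes was 0.14 in Atgl KO/cTg, against 0.27 in wt/cTg. For the mitosis genes the SD was larger in wt/cTg for 11 of 18, with medians of 0.18 in Atgl KO/cTg, against 0.24 in wt/cTg. Over all genes tested the median SD was 0.16 in Atgl KO/cTg, against 0.15 in wt/cTg. The difference in spread was not tested.

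Markers of several other cell types also differed between the extreme wt/cTg pools, in both directions. Of 7 T and NK cell markers 2 had differences between genotypes above 0 and 5 below, with summed log2 signals of 53.6 to 56.1 in Atgl KO/cTg, against 52.3 to 57.5 in wt/cTg. Their mean deviation was 0.16, -0.01, 0.02 and -0.21 in the Atgl KO/cTg pools, against 0.35, -0.12, 0.20 and -0.39 in the wt/cTg pools. Of 7 B and plasma cell markers 6 were measured, 3 above 0 and 3 below, with summed log2 signals of 59.7 to 60.1 in Atgl KO/cTg, against 56.0 to 61.1 in wt/cTg. Their mean deviation was 0.06, 0.03, 0.10 and 0.09 in the Atgl KO/cTg pools, against 0.27, -0.02, 0.04 and -0.57 in the wt/cTg pools. Over the Atgl KO/cTg pools neither list had the order of the mitosis genes. The T and NK markers were lowest in replicate 4, where the mitosis genes were at 0.13. The B and plasma markers were highest in replicate 3, where the mitosis genes were at -0.14. The lowest single values were 5.83 for the T and NK list and 7.36 for the B and plasma list, where the lowest value of any probe set was 1.85.

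In wt/cTg replicate 4, where the cell cycle genes and the lymphocyte markers were low, those of 3 other lists had their highest mean of the 8 pools. The mean deviation there was 0.62 for fibroblast and smooth muscle markers, 0.45 for endothelial markers and 0.45 for alveolar type 2 markers, while that of the 7 club cell markers was -0.23, their lowest of the 8 pools. All 7 fibroblast and smooth muscle markers had differences between genotypes below 0, beside 52.2% of all genes tested. Their summed log2 signals were 51.1 to 55.5 in Atgl KO/cTg, against 55.0 to 59.3 in wt/cTg. Of 6 endothelial markers 2 were above 0 and 4 below, with sums of 53.5 to 57.5 in Atgl KO/cTg, against 55.8 to 59.3 in wt/cTg. Of the club cell markers 4 were above 0 and 3 below, with sums of 79.9 to 81.1 in Atgl KO/cTg, against 78.5 to 80.6 in wt/cTg.

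In wt/cTg replicate 1, where the replication genes were highest, fibroblast and smooth muscle markers also lay above their mean, at 0.30, and 6 ciliated cell markers had their lowest deviation, -0.46. Of the ciliated markers 5 were above 0 and 1 below, with sums of 42.6 to 45.5 in Atgl KO/cTg, against 40.7 to 43.8 in wt/cTg. The lowest single values were 4.97 for the fibroblast and smooth muscle list, below the median of all probe sets (5.18), and 5.46 for the ciliated list. All 7 neutrophil markers were above 0, beside 6261 of 13112 genes tested, with sums of 48.5 to 54.5 in Atgl KO/cTg, against 46.9 to 50.5 in wt/cTg. Their lowest single value was 3.30, also below the median of all probe sets. Of these 7 genes 5 were tested, and none passed the threshold. The mean deviation of all 7 was 0.0092 in wt/cTg replicate 1 and -0.28 in wt/cTg replicate 4. Of 6 alveolar macrophage markers 3 were above 0 and 3 below, with deviations of -0.06 and 0.0059 in these pools. Of 3 basal markers 2 were above 0 and 1 below, with 0.11 and 0.04, and their lowest single value was 4.21. The part of any of these cell types in the pool differences was not tested.

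**Figure D4:**
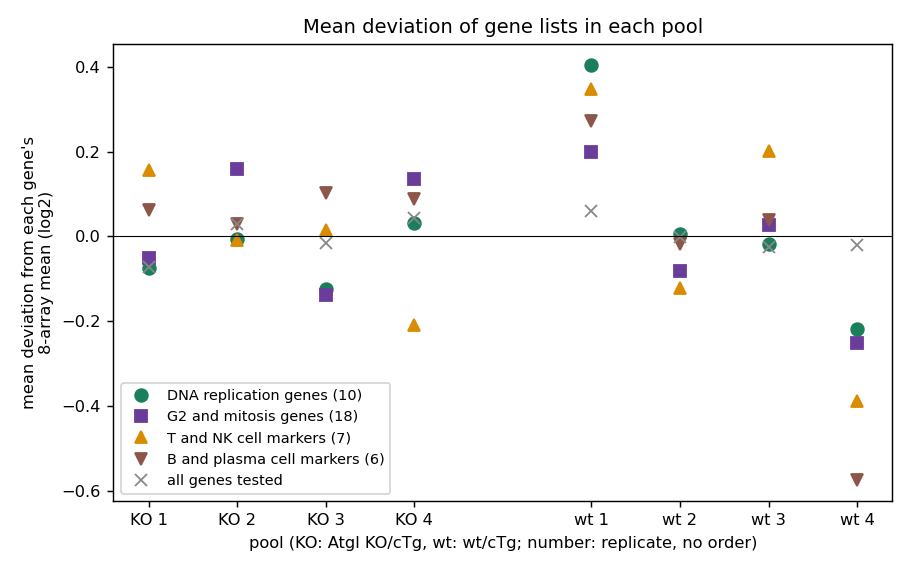
Mean deviation of each gene list from its genes' own 8-array means (y axis, log2) in each pool, with Atgl KO/cTg on the left and wt/cTg on the right. Replication genes (circles) reach 0.40 in wt/cTg replicate 1 and -0.22 in wt/cTg replicate 4. Lymphocyte markers (triangles) have their highest mean in wt/cTg replicate 1 and their lowest in wt/cTg replicate 4. Over the Atgl KO/cTg pools the lymphocyte markers and the mitosis genes differ in order.

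The genes varied together over the pools. With the genotype means removed, the median Pearson correlation over the 8 arrays was 0.63 for the 45 pairs of replication genes, all of them above 0, and 0.79 for the 15 pairs of Mcm genes. It was 0.60 for the 153 pairs of mitosis genes, 150 of them above 0, and 0.59 between the replication and mitosis genes. Over all pairs of genes tested the median was 0.08, with 56.7% above 0. These values are descriptions, since the points of all pairs share the same 8 arrays and their amplification.

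The correlations were lower without either of the extreme wt/cTg pools. Over all 378 pairs of replication and mitosis genes the median was 0.60, which became 0.43 when wt/cTg replicate 1 was left out and 0.51 when wt/cTg replicate 4 was. Among replication genes it was 0.30 without wt/cTg replicate 1, and among the Mcm genes 0.41. Within the set Foxm1, Mcm6 and Mcm5 followed the replication genes most closely, with median correlations of 0.79, 0.78 and 0.77. Cenpa had the lowest median with replication genes, 0.11, and Pcna the lowest with mitosis genes, 0.24. Cdk1 had 0.51 with replication genes and 0.49 with mitosis genes.

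**Figure D5:**
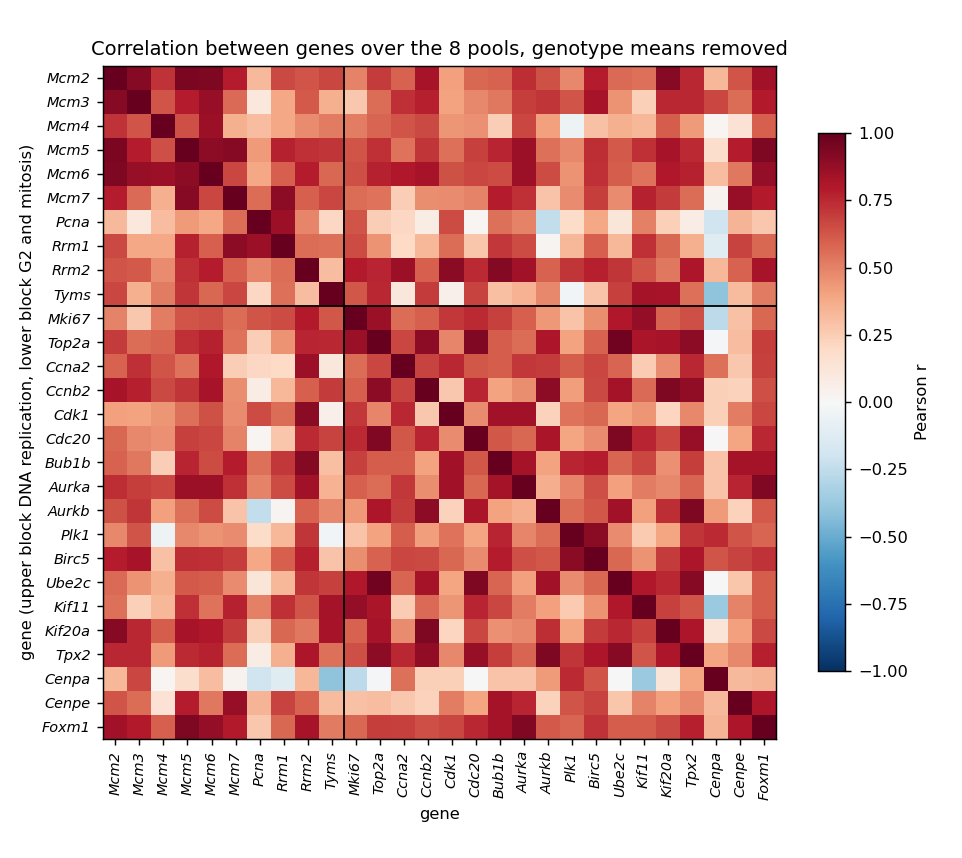
Pearson correlation (colour) between each pair of the 28 tested replication and mitosis genes over the 8 pools after removal of the genotype means, with replication genes first and mitosis genes after the line. Most cells are above 0, and the rows of Cenpa and Pcna are the palest.

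Further genes of the cycle gave the same count of 0 past the threshold in each list, beside 0.0991% of all genes. At an unadjusted p under 0.05 there was 1 in each of the lists of other replication and other mitosis genes and 0 in the lists of G1 factors and inhibitors, where 7.95% of all genes tested met that rule. Of 26 other replication genes tested 13 were above 0 and 13 below, with a median of 0.016. The 3 with the largest differences were Rpa2, a subunit of the protein that coats single-stranded DNA, at 0.32 (limma adjusted p = 0.547), Tk1, thymidine kinase, at 0.29, and Gmnn, the licensing inhibitor geminin, at 0.21. Of 37 other mitosis genes tested 20 were above 0 and 17 below, with a median of 0.0081. There the largest were Ect2, which acts in cytokinesis, at -0.45 (limma adjusted p = 0.547), Nek2, a centrosome kinase, at 0.28, and Spc24, a kinetochore protein, at 0.24.

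Upstream of these, 17 G1 kinases, cyclins and E2F factors were tested, of which 4 were above 0 and 13 below, with a median of -0.034. The largest differences of the list were in E2f7, a repressor of E2F targets, at 0.25, E2f4, a pocket protein partner, at 0.16, and E2f2, an activator, at 0.16. E2f7 and E2f2 lay below the level filter. E2f7 read 4.45, 4.44, 4.26 and 4.26 in Atgl KO/cTg, against 4.19, 4.14, 4.00 and 4.06 in wt/cTg. Its groups did not overlap, with an exact two-sided permutation p of 0.0286, the smallest possible, but at so low a signal it was outside the adjusted test. It is named for the size of its difference, and 4.35% of all genes tested had groups that did not overlap.

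The brakes of the cycle were tested as 14 CDK inhibitors and pocket proteins, 8 above 0 and 6 below, with a median of 0.024. The largest differences were in Cdkn1c (p57) at 0.22, Cdkn2c (p18) at -0.19 and Rb1, the retinoblastoma protein, at -0.15. In this list 1 of 14 genes, Cdkn1b (p27), had groups that did not overlap, beside 4.35% of all genes tested, and it is named after its values were seen. It read 8.57, 8.58, 8.61 and 8.65 in Atgl KO/cTg, against 8.68, 8.71, 8.66 and 8.87 in wt/cTg, with a difference of -0.13 (limma adjusted p = 0.730). Cdkn1a (p21) averaged 10.65 in Atgl KO/cTg, against 10.61 in wt/cTg.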

How the data were processed

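Per the labels' protocols, RNA was extracted from club cells with a miRNeasy Micro kit, 50 ng was amplified with a NuGEN Ovation Pico WTA kit, and the product received a biotin label. What the authors deposited is 1 log2 signal for each of 41345 probe sets on each array, taken here without change. The log2 unit was read from the range of 1.85 to 13.5. For array software, background correction and normalization, the sources used here give no entry. The number of arrays limits the precision, and the spread is that between pools.

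The test was limma 3.58.1 under R 4.3.3 (lmFit, eBayes with a variance trend), two-sided and adjusted over 13112 genes, with an exact permutation over the 70 arrangements of the arrays for single genes. On simulated data of this size (10 runs, 200 genes given a difference) 39.3% were recovered at a log2 difference of 0.5 and 88.8% at 1, with 4.64% false among calls and 95.2% of intervals holding the true size. The simulated noise was drawn for each gene on its own, whereas the genes described here varied together over the pools. With fewer differing genes, or with intervals wider than those of most genes, as here, the shares recovered can be lower.

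The members and lists were chosen with earlier results of these data known. The rule for named genes asked for the value in every array for Mki67, Top2a, Cdk1, Ccnb1, Mcm2, Pcna, Rrm2, Ccnd1 and Ccne1, of which Ccnb1 had no usable probe set, and for the 3 members of each role with the smallest limma p, and for the names of the 3 largest differences in every other list of cell cycle genes. Alternatives covered the level filter, variance prior, scaling, array weights, probe sets, age, runs of mouse numbers and each array left out. The design text mentions sets of arrays, whose members no label names. Erythroid markers had no probe set with a single symbol, and every other list of cell type markers is given above. Figures were drawn with matplotlib 3.10.9.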

Additional observations from a re-analysis of the deposited data

Results flagged for a closer look

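In 5 of 66 groups of 4 arrays 1 pool stood far from the other 3, where chance marks about 1 in 20 groups. Ccnd1 read 9.51 in Atgl KO/cTg replicate 3, below 9.71 to 9.73 in the other pools of its genotype. In wt/cTg replicate 1 Mcm3 read 7.27, above 6.57 to 6.64 in the other wt/cTg pools, and Foxm1 read 6.02, above 5.76 to 5.80. In wt/cTg replicate 4 Top2a read 6.48, below 7.05 to 7.16 in the other wt/cTg pools, and Ube2c read 7.16, below 7.66 to 7.70. The cause was not tested.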

How the results depend on the processing

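None of the tested members passed the threshold under any of the 17 settings or at an adjusted p under 0.1, and 14 of 30 kept the sign of their difference in every setting (44 of 508 values had the other sign). For Cdk1 the unadjusted p ran from 0.00688 to 0.0662. Over all genes 1 to 25 were called across settings, against 13. With runs of mouse numbers as a block, Ccne1 gave 6.4e-05, Mcm2 -0.13 and Mcm3 -0.074. Median centring gave -0.028 for Mcm2, -0.019 for Mcm3 and -0.0029 for Mki67. Array weights gave -0.014 for Mki67, -0.023 for Top2a, -0.022 for Cdc20, -0.0084 for Bub1b and -0.0053 for Tpx2. With 1 array left out, differences ran from -0.11 to 0.017 for Ccne1, -0.15 to 0.23 for Mcm2, -0.068 to 0.18 for Mcm3, -0.17 to 0.010 for Mcm4, -0.29 to 0.018 for Mcm5, -0.14 to 0.13 for Mcm6 and -0.19 to 0.027 for Rrm2. In mitosis genes they ran from -0.10 to 0.092 for Mki67, -0.11 to 0.11 for Top2a, -0.030 to 0.19 for Ccnb2, -0.034 to 0.14 for Cdc20, -0.043 to 0.19 for Bub1b, -0.043 to 0.17 for Ube2c, -0.0082 to 0.13 for Kif20a, -0.033 to 0.091 for Tpx2 and -0.096 to 0.064 for Cenpe. The median correlation over all pairs ran from 0.43 to 0.68 with 1 array left out. None of the 44 values with the other sign had an interval that left out 0. No detection values were used here, so signal over background could not be given. Pools were not paired by replicate number, which follows the order of the samples.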
